A study of Mus musculus with 21 samples.

Results

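In chromatin immunoprecipitation of wild-type embryonic mouse hearts at embryonic day (E) 10.0, 2389 CHD4 peaks were at least 1000 bp wide and shared by the 3 libraries. They are called wide shared peaks here. Each is a peak of the replicate 1 list, on chromosomes 1 to 19 or X, that overlaps a peak of the replicate 2 list and a peak of the replicate 3 list by at least 1 bp. They were 2389 of the 84271 peaks of the replicate 1 list and 10.5% of its shared peaks. The other 20407 shared peaks, under 1000 bp, are called narrow here and serve as the comparison. The members were chosen by measured values, their width in replicate 1 and their overlap with the other lists, so widths, overlaps and the scores of the same peaks are given as a description with no test.

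All animals were of strain CD1. The immunoprecipitation used a mouse monoclonal anti-CHD4 antibody (clone 3F2/4) and Nextera XT libraries. The series text counts 2 biological samples behind the 3 libraries, so at least a pair of the lists shares a biological source. Both input libraries were left out here. Polyadenylated RNA was sequenced with strand-marking TruSeq libraries from whole hearts of Chd4(flox/flox) embryos, the controls (flox), and of Chd4(Δflox/Δflox) embryos, depleted of CHD4 (null). There were 5 flox and 5 null libraries at E9.5, from 200 ng of RNA each, and 3 flox and 3 null libraries at E10.5, from 300 ng. All flox and null animals carry floxed Chd4 alleles. The labels do not name the Cre line, the cells it acts in or the sex of the embryos. The series text calls the RNA libraries biological replicates. RNA libraries held between 17.1 and 23.5 M (mega) reads at E9.5, and at E10.5 between 17.3 and 18.9 M.

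CHD4 is an ATPase that moves nucleosomes, and it is the motor subunit of the NuRD complex, which also removes acetyl groups from histones. NuRD is known mainly as a repressor, although it also binds active promoters and enhancers. In the heart, CHD4 is known for keeping genes of other muscle types silent in cardiomyocytes. Transfer RNA (tRNA) genes and some small nuclear RNA genes are made by RNA polymerase III, and most other genes here by RNA polymerase II.

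The promoters of 8 genes whose start lay in a wide shared peak are shown because RNA results of these genes are given below, and because they show both kinds of promoter found there. Of the 8 genes, Myl2, Gata5 and Rbbp4 did not pass the RNA test at E9.5. The first 6 held few CpG dinucleotides and the last 2 held many. The 8 are not in proportion, as most starts in wide peaks had promoters rich in CpG. Each line gives the 250 bases before the listed start, 5′ to 3′ on the gene's strand, from RefSeq (GRCm38.p6, the assembly of mm10), with every CpG in capitals.
Nkx2-5: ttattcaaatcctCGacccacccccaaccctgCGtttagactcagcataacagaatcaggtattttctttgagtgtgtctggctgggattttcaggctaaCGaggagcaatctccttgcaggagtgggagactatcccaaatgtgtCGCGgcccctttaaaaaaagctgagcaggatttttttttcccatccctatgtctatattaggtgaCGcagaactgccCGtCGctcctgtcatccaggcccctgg
Fbxl22: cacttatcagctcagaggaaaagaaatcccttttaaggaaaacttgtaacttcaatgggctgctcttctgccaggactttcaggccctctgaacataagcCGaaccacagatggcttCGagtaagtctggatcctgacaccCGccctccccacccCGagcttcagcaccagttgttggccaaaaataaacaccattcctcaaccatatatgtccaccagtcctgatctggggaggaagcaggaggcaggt
Mybphl: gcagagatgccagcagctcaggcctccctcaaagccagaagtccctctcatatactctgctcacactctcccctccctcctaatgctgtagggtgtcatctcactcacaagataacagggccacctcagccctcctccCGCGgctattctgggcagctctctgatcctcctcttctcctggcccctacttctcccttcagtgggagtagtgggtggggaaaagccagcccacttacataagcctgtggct
Actc1: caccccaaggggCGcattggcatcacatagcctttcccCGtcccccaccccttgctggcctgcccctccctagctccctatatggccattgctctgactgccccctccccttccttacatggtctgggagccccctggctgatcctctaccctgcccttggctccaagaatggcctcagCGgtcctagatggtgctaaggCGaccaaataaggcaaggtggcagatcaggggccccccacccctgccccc
Myl2: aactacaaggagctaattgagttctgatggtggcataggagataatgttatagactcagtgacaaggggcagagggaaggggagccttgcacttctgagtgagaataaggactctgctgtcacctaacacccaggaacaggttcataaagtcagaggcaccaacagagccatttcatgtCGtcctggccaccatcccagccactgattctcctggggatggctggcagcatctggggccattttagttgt
Cox6b2: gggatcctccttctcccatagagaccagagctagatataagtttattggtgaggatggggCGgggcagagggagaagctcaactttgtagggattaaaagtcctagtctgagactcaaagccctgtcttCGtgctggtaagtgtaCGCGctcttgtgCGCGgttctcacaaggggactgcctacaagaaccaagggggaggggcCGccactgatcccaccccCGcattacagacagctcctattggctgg
Gata5: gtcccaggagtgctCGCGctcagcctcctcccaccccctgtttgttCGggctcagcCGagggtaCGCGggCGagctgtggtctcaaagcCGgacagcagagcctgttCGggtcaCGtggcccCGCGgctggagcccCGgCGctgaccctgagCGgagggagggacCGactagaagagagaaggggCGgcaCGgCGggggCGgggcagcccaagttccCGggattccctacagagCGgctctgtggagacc
Rbbp4: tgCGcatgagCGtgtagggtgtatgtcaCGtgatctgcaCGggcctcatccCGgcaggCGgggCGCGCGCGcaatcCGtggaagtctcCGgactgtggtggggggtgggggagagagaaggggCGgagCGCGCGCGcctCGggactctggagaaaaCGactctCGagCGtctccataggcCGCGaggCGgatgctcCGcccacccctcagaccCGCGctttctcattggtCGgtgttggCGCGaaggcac
The stretches are chr17:26841566-26841815 (minus strand) for Nkx2-5, chr9:66514594-66514843 (minus) for Fbxl22 and chr3:108364661-108364910 (plus) for Mybphl. They are chr2:114052876-114053125 (minus) for Actc1, chr5:122092474-122092723 (plus) for Myl2 and chr7:4753095-4753344 (minus) for Cox6b2. They are chr2:180334680-180334929 (minus) for Gata5 and chr4:129335371-129335620 (minus) for Rbbp4. Each of the 8 stretches lies upstream of the gene and ends at the base before the listed start. The printed bases held 8 CpG for Nkx2-5, 1 for Myl2, 2 for Mybphl, 22 for Gata5 and 30 for Rbbp4.

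Most starts in wide peaks had promoters rich in CpG, and so did most starts in narrow peaks. Over the 300 bases from 250 before to 50 after a listed start, the median ratio of observed to expected CpG was 0.81 for the 1311 starts in wide peaks. It was 0.79 for the 4583 starts in narrow peaks and 0.30 for the 26725 starts in no shared peak. A ratio of at least 0.6 was found at 81.7% of starts in wide peaks, 80.4% in narrow peaks and 36.0% of all 32619 listed starts. Median GC content was 60.3% at starts in wide peaks, 60.0% in narrow peaks and 51.0% in no shared peak. Promoters of wide and narrow peaks therefore differed little in base composition, while both stood apart from promoters with no shared peak.

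10 short motifs were searched in the same 300 bases on both strands. The GC box GGGCGG, which Sp family factors bind, was present at 64.1% of starts in wide peaks, 63.2% in narrow peaks and 35.9% of all starts. The ETS core CCGGAA was at 31.0%, 36.2% and 15.0%, and CCAAT at 45.5%, 48.1% and 37.6%. The cyclic AMP response element TGACGTCA was at 5.19% of starts in wide peaks, 4.12% in narrow peaks and 1.80% of all. Motifs of cardiac factors were less frequent in wide peaks than over all starts, and against narrow peaks some were slightly more and some slightly less frequent. The GATA motif AGATAA was at 6.71% of starts in wide peaks, 6.15% in narrow peaks and 11.2% of all starts, the T-box motif AGGTGT at 8.70%, 10.4% and 13.8%, and the E-box CAGCTG at 12.5%, 12.8% and 16.4%. The TEAD motif GGAATG was at 13.3%, 11.4% and 14.6%, the MEF2 motif (CTA and TAG with 4 bases of any kind between) at 3.66%, 3.45% and 3.71%, and the TATA box TATAAA at 7.55%, 6.74% and 13.7%. These differences were not tested. The letters of the GC box, the ETS core and the cyclic AMP response element hold G and C pairs that go with base composition, and a match is no binding site. Within the 250 printed bases, Mybphl and Myl2 held the GATA motif, Fbxl22 the GC box and the TEAD motif, and Nkx2-5 none of the 10.

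Wide shared peaks had a median width of 1249 bp, with quartiles of 1099 and 1533 bp and a highest value of 7246 bp. Of the values that the choice used, 97.7% of the 2445 replicate 1 peaks of at least 1000 bp were shared, against 24.95% of those under 1000 bp, and a longer peak meets another more easily by its length alone. The peak score is the authors' whole number per peak, on a scale that is not stated. Its median in replicate 1 was 180 for wide and 74 for narrow peaks. The medians of the highest overlapping score were 141 and 62 in replicate 2, and 110 and 53 in replicate 3. Wide peaks were thus higher at the median in each list, but the highest score of all, 9919, belonged to a narrow peak, above the 4600 of the highest wide peak.

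A wide peak of replicate 1 was often several peaks in the other lists. More than 1 peak met it in replicate 2 for 54.8% of members and in replicate 3 for 56.1%. The widest overlapping peak had a median of 725 bp in replicate 2 and 586 bp in replicate 3, and 324 members (13.6%) were at least 1000 bp wide in all 3 lists. The other lists covered a median of 68.1% and 57.6% of a member's length. Just inside the width limit, at 1000 bp, were chr1:165652820-165653819 in Rcsd1, chr2:180334442-180335441 over the Gata5 start and chr6:128300773-128301772 at an end of Tead4, with scores of 48, 278 and 48 in replicate 1. Just outside it, 1 bp narrower, were chr1:156615162-156616160 in Abl2, chr12:76254943-76255941 over the start of Mthfd1 and chr13:12461310-12462308 over the start of Lgals8, with scores of 55, 304 and 103.

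Each peak was put in the first position class that applied. The order was tRNA, other small RNA and histone genes, then listed starts and ends of genes with no listed start. Next came 5 kb past 3′ ends, and only then the inside of genes. By first class, listed gene starts held the most wide peaks and the inside of genes the next most. Narrow peaks were most often in the class inside genes. Listed starts of coding or long noncoding RNA genes held 38.1% of wide peaks (910) and 18.1% of narrow peaks. The inside of a coding or long noncoding RNA gene, as first class, held 27.1% of wide (648) and 45.0% of narrow peaks. Counted without that order, 78.7% of wide and 70.6% of narrow peaks overlapped such a gene. No gene within 5 kb was found for 7.24% of wide and 12.1% of narrow peaks. A listed start, or either end of a gene with none listed, lay within 5 kb of 75.5% of wide and 59.7% of narrow peaks. With a window of 1 kb these shares were 64.0% and 40.7%, and with 50 kb they were 94.6% and 93.6%, so that the gap was largest close to the start.

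**Figure D1:**
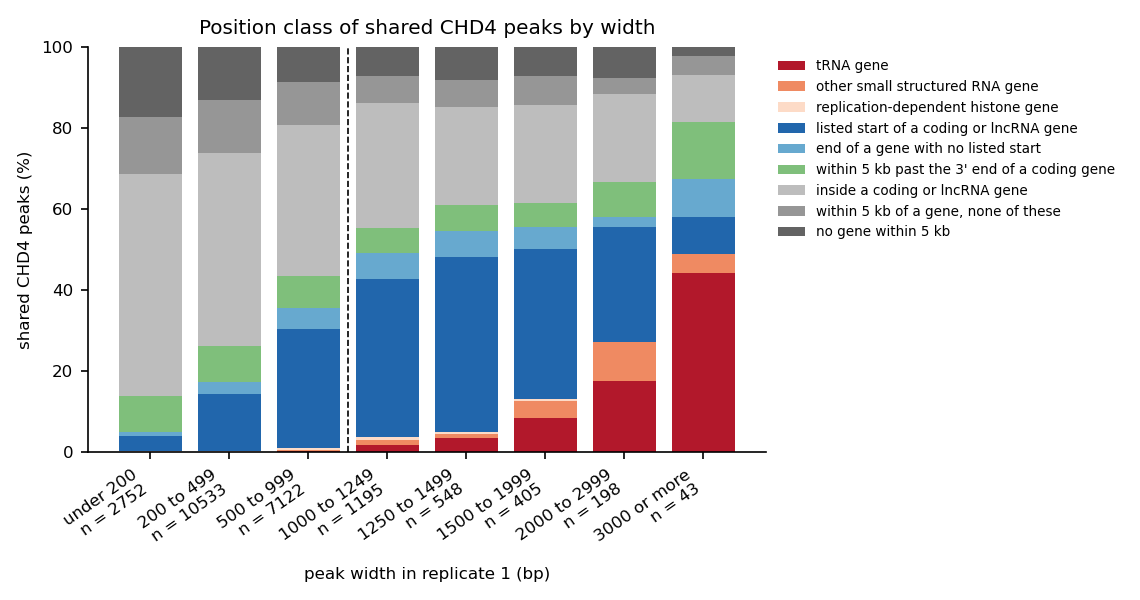
Stacked bars give the percent of shared CHD4 peaks in each position class (y axis) for 8 bins of peak width in replicate 1 (x axis, bp; n is the number of shared peaks in the bin; the dashed line is the 1000 bp limit). The share over tRNA genes is 1.84% in the narrowest bin of wide peaks and 44.2% at 3000 bp or more, and the share over listed starts falls to 9.30% in that widest bin.

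tRNA genes had the greatest ratio of the share of wide to the share of narrow peaks, with other small structured RNA genes (2.51% against 0.113%) close behind, while by difference in share listed starts came first. Of the 2389 wide peaks, 129 (5.40%) lay over a tRNA gene, against 0.225% of narrow peaks, and they had a median score of 484. Of the 408 listed tRNA genes, 221 (54.2%) were under a wide peak and 46 more under a narrow peak only. The wider the peak, the more often it held tRNA genes. Their share was 1.84% in the narrowest bin of wide peaks, 8.40% from 1500 bp to under 2000 bp, 17.7% from there to under 3000 bp and 44.2% of the 43 peaks of at least 3000 bp. Of the 129 peaks, 78 lay over 1 tRNA gene and 51 over 2 or more. Chromosome 13 held 51 of them and chromosome 11 held 19.

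Of the 8 widest members, 6 lay over clusters of tRNA genes. The widest of all was chr13:21166641-21173886 (7246 bp), over 7 tRNA genes, with scores of 825, 609 and 693 in the 3 lists. Next came chr11:48852509-48858410 (5902 bp) over 4 tRNA genes. The regions chr17:23545794-23551328 and chr13:23497453-23502341 each held 4, chr3:96497259-96502306 held 5 and chr19:12008289-12012890 held 6. The last was 1 unbroken peak in every list, whereas the widest of all was 5 peaks in replicate 2 and 3 in replicate 3. The other 2 held none. They were chr17:29044226-29050121 (5896 bp), past the 3′ end of Srsf3, a splicing factor gene, and chr14:54932082-54937047 (4966 bp), over Cmtm5 and Il25 and past the 3′ end of Myh6.

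Coverage differed between tRNA families. Wide peaks lay over 21 of 24 arginine, 9 of 10 tyrosine, 6 of 7 phenylalanine and 13 of 16 proline tRNA genes, but over 5 of 56 cysteine tRNA genes. Many tRNA genes have near-identical copies, and the sources used here do not say how reads that fit several copies were treated, so the count for a family is uncertain. The RNA libraries hold polyadenylated RNA and do not measure tRNA.

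Small nuclear RNA genes, most of them for parts of the splicing machinery, carried the highest scores among wide peaks. Of the 8 wide peaks of highest replicate 1 score, 7 lay over small nuclear RNA genes. The highest was chr11:101657501-101660373 (2873 bp) over Rnu2-10, a U2 gene, with scores of 4600, 3325 and 2876. The peak over Rnu5g, a U5 gene, at chr9:65200178-65202482 had 2918, 1889 and 1680, and that over Rnu11 at chr4:132268385-132270689 had 2139, 1609 and 1351. The other 4 lay at chr5:115488740-115492308, over 2 small nuclear RNA genes and parts of Pxn and Sirt4, and at 3 sites inside Tex14 on chromosome 11 that hold Gm22068, Rnu1a1 and Rnu3b1. The eighth, chr7:45394959-45396957 with scores of 2062, 1554 and 1587, lay over the start of Snrnp70, which encodes a protein of the U1 particle. Rnu3b1 is listed as a small nuclear RNA gene, although U3 RNA acts in ribosomal RNA processing.

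Only some copies of these gene classes were under wide peaks. Wide peaks lay over 37 of 1003 listed small nuclear RNA genes, 32 of 1340 small nucleolar RNA genes, 14 of 1228 microRNA genes and 0 of 63 ribosomal RNA genes. They lay over both listed Y RNA genes (Rny1 and Rny3), Rmrp (the RNA of RNase MRP), Rn7sk (7SK RNA, which holds back the elongation factor P-TEFb) and Rnu7 (which acts in histone mRNA processing). Rn7sk had a peak of 2033 bp with scores of 528, 391 and 299. Of the 65 replication-dependent histone genes, 17 were under a wide peak and 35 more under a narrow peak only, so there narrow peaks were the more frequent kind.

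Wide peaks at gene starts were more frequent in each higher quintile of RNA level, and past 3′ ends they were more frequent in the highest quintile. Among coding genes of at least 2 kb with a listed strand, tested at E9.5, a wide peak covered the position 200 bp before the start in 26% of the 200 genes of highest flox level and in 15.2% of the highest quintile. In the lowest quintile the highest coverage was 3.36%, at 100 bp before the start. Past the 3′ end, coverage was highest 1000 bp downstream in the 200 highest genes, at 11.5%, and was 0.5% at 500 bp before that end. Around that end the highest quintile reached 2.96%, and quintiles 1 to 4 reached 1.08%, 0.909%, 1.29% and 1.17%, with no order by level. The relation to level was not particular to wide peaks. Narrow peaks covered the start in 15.8%, 35.1% and 44.0% of genes of quintiles 1, 3 and 5. At 2000 bp past the 3′ end they covered 1.52%, 1.64% and 3.21%. In the 200 highest genes narrow peaks covered 5% at 1000 bp past that end, less than wide peaks. Eef1a1, the translation elongation factor, had a peak of 3634 bp past its 3′ end at chr9:78474781-78478414 and a flox level of 244 ± 9.61 RPKM (SD, n = 5). Actg1, a cytoplasmic actin with near-identical copies, had one of 3586 bp at chr11:120342129-120345714. It was listed at 8.14 ± 1.33 RPKM in flox (SD, n = 5), a level that is uncertain because of those copies.

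**Figure D2:**
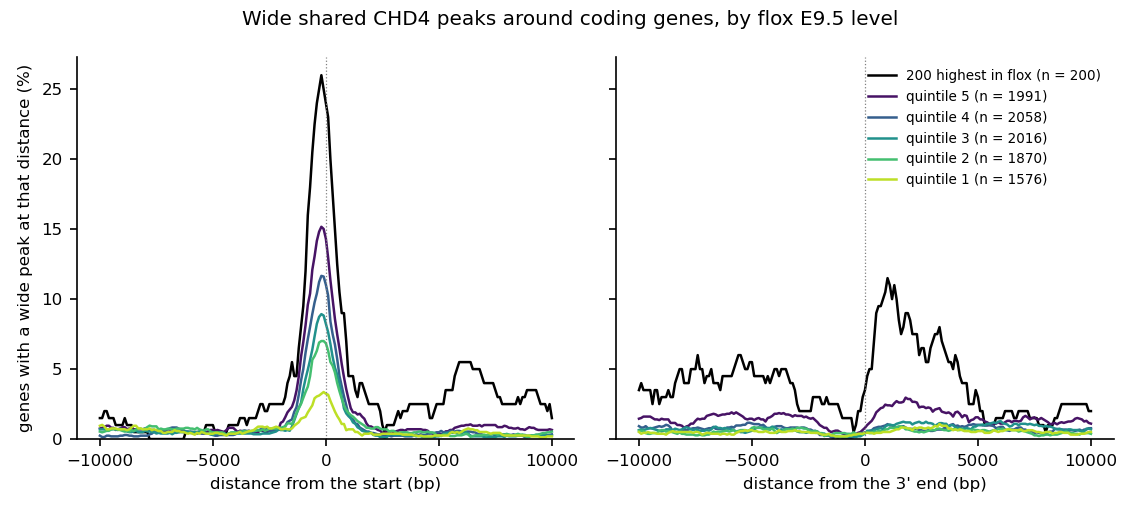
Percent of coding genes with a wide shared peak (y axis) at each distance in bp from the listed start (left) and from the 3′ end (right, positive is downstream), for the 200 genes of highest mean flox RPKM at E9.5 and for quintiles of level. The quintiles are of mean RPKM over the flox and null libraries at E9.5, cut over all tested genes. The flox level in the title applies to the 200 genes only. At the start the 200 highest genes reach 26% and quintile 1 reaches 3.36%; past the 3′ end the 200 highest genes reach 11.5%.

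By level, a start within 5 kb of a wide peak was found for 6.56% of tested genes in the lowest quintile of E9.5 mean RPKM (reads per kilobase and per M reads) and for 20.01% in the highest. Of the 50 genes of highest mean RPKM, 19 had one, and of the 500 highest, 129. A start near a narrow peak and no wide one was found for 33.9% of the lowest quintile and 59.2% of the highest. The median flox level at E9.5 was 14.4 RPKM for genes near wide peaks, 11.5 near narrow peaks only, 4.72 near no shared peak and 9.02 over all tested genes. As the immunoprecipitation is from E10.0 hearts and the RNA from E9.5, this is a relation across genes and not across samples, and genes are not independent replicates.

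Some cardiac genes were met by many wide peaks. The genes named here were chosen after their values were seen, for the number of wide peaks that meet them. Slc8a1, the cardiac sodium-calcium exchanger, was met by 41 wide peaks over its 365283 bp (chr17:81373105-81738387). They covered 17.4% of the gene, and all peaks of replicates 1, 2 and 3 covered 55.9%, 27.0% and 33.8% of it. The highest wide peak there scored 275, so this is broad coverage by peaks of moderate score. Ttn, the giant sarcomere spring titin, was met by 14 wide peaks, which covered 7.57% of it. Qk, an RNA-binding splicing regulator, was met by 9, Rbpms and Rbm20, which also regulate splicing in muscle, by 6 each, and Jph2, which joins the sarcoplasmic reticulum to the cell membrane, by 5.

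Myh6, the alpha cardiac myosin heavy chain, had the densest cover of these genes. Its 7 wide peaks covered 41.9% of 26097 bp (chr14:54941921-54968017), and all peaks of the 3 lists covered 70.1%, 38.1% and 38.1%. Its neighbour Myh7, the beta heavy chain, was met by no wide peak, and the 3 lists covered 5.05%, 2.15% and 1.45% of it. Over 16777 coding genes of at least 5000 bp, the median covered was 1.019%, 0.43% and 0.22% in the 3 lists, and only 90, 17 and 13 genes were covered over more than 30%. Tex14 was met by 5 wide peaks, but these include the small nuclear RNA genes inside it, and Tex14 RNA was at most 0.201 RPKM in any library.

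**Figure D3:**
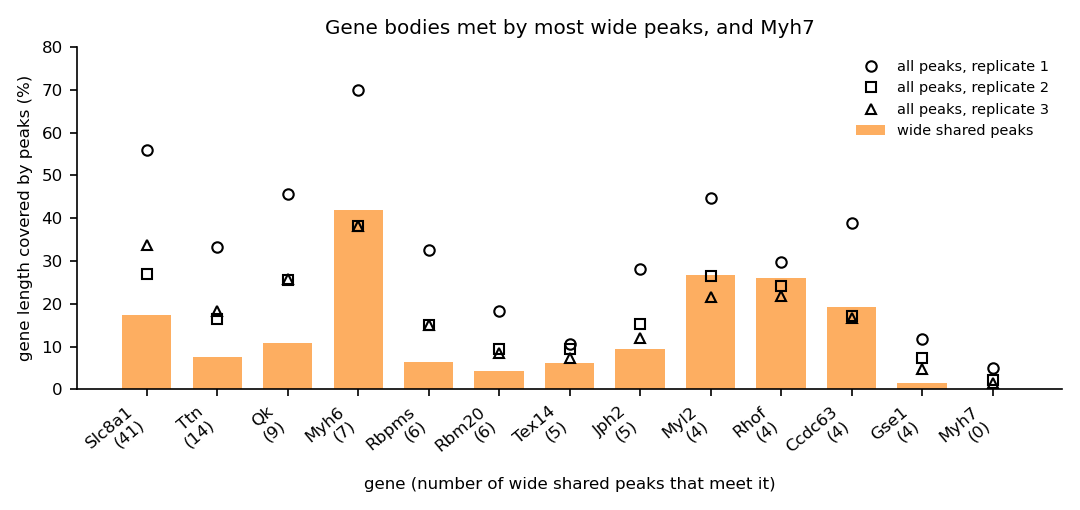
Percent of the gene length covered (y axis) by wide shared peaks (bars) and by all peaks of each of the 3 lists (symbols), for the 12 genes met by most wide peaks and for Myh7; the number of wide peaks is in brackets. Myh6 has the highest cover by wide peaks, 41.9%, and Myh7, next to it, has none.

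One of the wide peaks inside Myh6, chr14:54948655-54950302 (1648 bp), lies over Mir208a, a heart microRNA in an intron of Myh6. Its 2 mature forms from RefSeq are shown 5′ to 3′ with the seed, bases 2 to 8, in capitals, because it is the cardiac member of the 14 microRNA genes under wide peaks.
mmu-miR-208a-3p: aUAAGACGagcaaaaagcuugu
mmu-miR-208a-5p: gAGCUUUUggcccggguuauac
They lie at chr14:54949072-54949093 and chr14:54949107-54949128, on the minus strand. The microRNA itself was not measured here.

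Chromosomes differed in the number of wide peaks per coding gene. Chromosome X held 5 wide peaks, or 0.518 per 100 coding genes, against 7.66 on chromosome 16, the lowest autosome, and 17.6 on chromosome 17, the highest. Chromosome X also held few narrow peaks, 0.730% of them. On the autosomes wide peaks often lay near each other, as 27.4% had another within 10 kb and 59.2% within 100 kb.

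The RNA libraries allow a test that the choice of peaks did not use, namely the difference between null and flox hearts for genes near a wide peak. Chd4 itself, whose start was 26 bp from a wide peak of 2250 bp, was at 91.4, 92.3, 94.6, 91.2 and 92.7 RPKM in flox at E9.5 and at 48.8, 46.9, 45.4, 40.7 and 46.9 in null. No null library reached a flox library, and the fall, as a log2 difference, was -1.01 (SE 0.05, limma adjusted p = 1.69e-06). At E10.5 it was at 67.2, 74.6 and 91.1 RPKM in flox and 48.2, 57.4 and 52.5 in null. The groups did not overlap there either, but the difference of -0.55 did not pass the test (adjusted p = 0.116, limma). Which part of the gene is deleted is not given in the labels, so these levels need not equal the level of intact CHD4 mRNA. In whole hearts, fewer cells of a type and less RNA per cell cannot be told apart.

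At E9.5 the genes near wide peaks differed between null and flox about as often as all genes, but more of their differences were falls. A gene counts as near when its listed start, or either end where no start is listed, is within 5 kb of the peak. Of the 1768 tested genes near wide peaks (12.96% of all tested), 72 rose (4.07%) and 233 fell (13.2%), against 6.87% and 10.3% of all 13643 tested genes. The share called in either direction was 17.3%, against 17.2% of all tested genes. Flox and null libraries did not overlap for 14.1% of them, against 14.1% of all tested genes. The median log2 difference was -0.09 near wide peaks and -0.04 over all tested genes. For genes near narrow peaks only, 4.98% rose and 11.6% fell, and for genes near no shared peak 10.5% rose and 7.43% fell. Falls outnumbered rises near wide and near narrow peaks, and rises outnumbered falls near no shared peak; the differences between these sets were not tested.

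The split depends on scaling. With each library scaled to its median, 93 genes near wide peaks rose and 173 fell, and over all genes 1151 rose and 1029 fell. Erythroid markers moved with genotype at E9.5: the summed level of the 13 markers was 10993 to 28044 RPKM in flox and 27819 to 75129 in null, with none of the 13 at 0 in any library. With that level as a covariate, 3 genes near wide peaks and 85 of all genes were called. The flox and null ranges of that level barely overlap, so such a fit cannot tell genotype and erythroid level apart. Leaving out 1 library gave 170 to 379 genes near wide peaks. The count was 170 without null 5 and 190 without flox 1.

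The split was also taken within quintiles of level. In the highest quintile of mean RPKM, 15.2% of genes near wide peaks fell and 3.30% rose, against 12.7% and 4.76% near narrow peaks only and 9.88% and 11.8% near no shared peak. In the lowest quintile 7.26% of genes near wide peaks fell and 3.91% rose, against 4.13% and 12.01% near no shared peak. In the middle quintile, in contrast, 10.7% of genes near wide peaks fell against 13.2% near narrow peaks only. The differences between these shares were not tested.

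**Figure D4:**
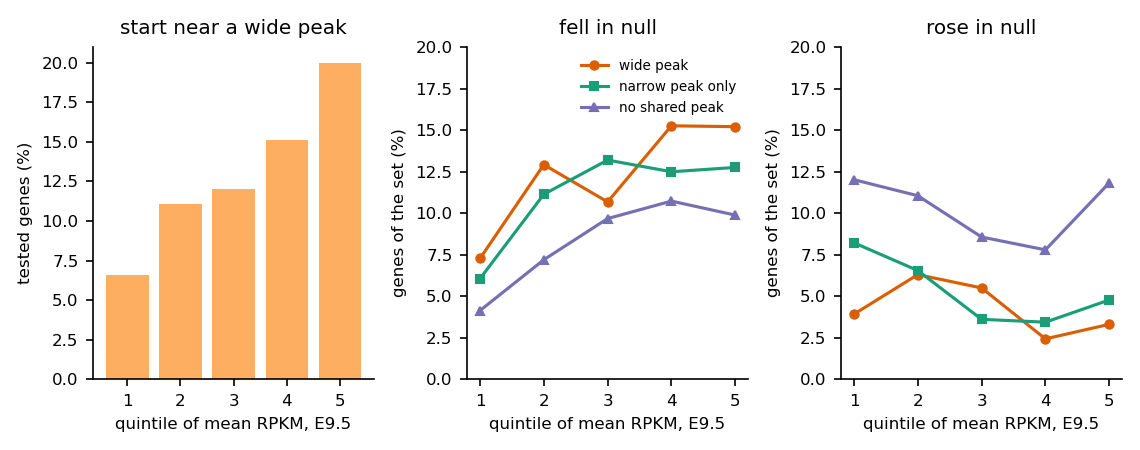
Left, percent of tested genes with a start within 5 kb of a wide shared peak (y axis) by quintile of mean RPKM at E9.5 (x axis); middle and right, percent of genes that fell or rose in null (limma, adjusted p under 0.05) near wide peaks, near narrow peaks only and near no shared peak. The share near wide peaks is 6.56% in quintile 1 and 20.01% in quintile 5, and the share that rose is highest in each quintile for genes with no shared peak.

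Among starts in wide peaks, and likewise in narrow peaks, promoters with few CpG had larger shares of both falls and rises. Over all starts this was so for rises only. Of 172 tested genes with a start in a wide peak and a CpG ratio under 0.6, 36 fell (20.9%) and 15 rose (8.72%) at E9.5. Of 831 with a ratio of at least 0.6, 110 fell (13.2%) and 25 rose (3.01%). For all starts the share that fell was 10.5% under the limit and 11.3% above it, and the share that rose was 11.7% and 5.08%. At starts in narrow peaks, 15.4% of genes with few CpG and 12.7% of the others fell, and 4.57% and 3.01% rose. These differences were not tested. By position along the gene, 148 of 988 coding genes with a wide peak within 500 bp of the start fell (15.0%), 50 of 356 with one past the 3′ end (14.0%) and 49 of 280 with one wholly inside (17.5%), against 11.02% of the 9511 coding genes measured in this way. With a narrow peak and no wide one there, 12.4% fell for the start and 12.9% for past the 3′ end. The 3 wide sets rose in 3.74%, 6.46% and 5.00%, and the narrow sets in 4.01% and 6.34%. Of the 9511 genes 6.94% rose. The differences between these positions were not tested either.

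The largest falls and rises named here are among called genes whose flox and null libraries did not overlap. These genes also had at least 1 RPKM in a group and no predicted symbol. Within these limits, after Nkx2-5 the largest falls near wide peaks at E9.5, apart from Chd4, were in Fbxl22 and Mybphl. Without these limits, 5 called genes near wide peaks fell at least 2-fold at E9.5. Nkx2-5, a homeodomain factor central to heart development, was at 141, 103, 132, 111 and 96.8 RPKM in flox and 58.2, 50.02, 40.6, 31.1 and 34.7 in null. Every null library lay under every flox library, with a log2 difference of -1.45 (SE 0.17, limma adjusted p = 0.000389). Its start lies in a wide peak of 1225 bp with scores of 344, 186 and 248. At E10.5 it was at 48.1, 23.6 and 43.7 RPKM in flox and 24.6, 22.2 and 25.2 in null, which overlap, with a difference of -0.61 that was not called (adjusted p = 0.205, limma).

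Fbxl22, an F-box protein of the cardiac Z-disc, was at 34.2, 25.1, 31.4, 19.2 and 27.0 RPKM in flox and 17.8, 10.7, 12.1, 7.21 and 10.8 in null at E9.5. It fell by 1.22 (SE 0.21, adjusted p = 0.00369, limma), with the lowest flox library only just above the highest null library, and its wide peak of 2728 bp runs from the start into the gene. Mybphl, a protein of the myosin-binding protein H family, was at 39.0, 33.9, 36.9, 32.9 and 31.7 RPKM in flox and 22.2, 12.3, 14.0, 17.3 and 14.9 in null. The groups were well apart, and it fell by 1.11 (SE 0.13, adjusted p = 0.000473, limma). Mylk3, the cardiac myosin light chain kinase, was at 64.9 to 81.3 RPKM in flox and 35.5 to 50.5 in null, and fell by 0.69 (SE 0.10, adjusted p = 0.00132, limma). The other large falls were Tle6 (-0.94), Wdsub1 (-0.88), Ift122 (-0.86) and Rgs9bp (-0.80), all with groups that did not overlap. None of these falls was lost when 1 library was left out, but with the erythroid level as a covariate all of them were (adjusted p from 0.0589 for Ift122 to 0.409 for Fbxl22), and only Chd4 kept its call among the largest falls (0.00145).

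The cardiac sarcomere list, fixed with earlier results known, had 8 of 25 genes near wide peaks (32.0%, against 12.96% of all tested genes). By level, the share was 20.01% in the highest quintile and 36% of the 100 genes of highest mean RPKM at E9.5. For the ribosomal protein list it was 31.8%. The part of RNA level in the share of sarcomere genes was not tested. Of the 8 sarcomere genes, 3 fell at E9.5, none rose, and the median difference was -0.31, against 10.3% that fell and a median of -0.04 over all tested genes. Over the whole list, 11 of 24 tested genes fell, so the falls were not limited to genes near wide peaks. Myh6 was at 550.9, 527.9, 526.3, 366.8 and 483.8 RPKM in flox and 362, 299, 301, 236 and 252 in null, and fell by 0.76 (SE 0.14, adjusted p = 0.00399, limma), although its highest null library came close to its lowest flox library. Csrp3, a Z-disc protein, was at 446 to 529 RPKM in flox and 322 to 386 in null and fell by 0.48 (SE 0.07, adjusted p = 0.0013, limma). Actc1, cardiac alpha-actin, was at 8498, 7271, 8454, 7834 and 7552 RPKM in flox and 7213, 5875, 6366, 6140 and 5600 in null. It fell by 0.35 (SE 0.10, adjusted p = 0.0349, limma), but its call was lost with median scaling (0.0598), and its adjusted p ranged from 0.0147 to 0.0886 as each library was left out. Myl2, Myl7, Tnni1, Tpm1 and Ldb3 were not called, with differences of -0.28, -0.18, -0.37, -0.22 and -0.11. Csrp3 and Ldb3 were added after their values were seen. With the erythroid level as a covariate, none of the falls of the cardiac, mitochondrial, chromatin and cell cycle lists described here kept its call except that of Chd4 (adjusted p from 0.0789 for Cpt1b to 0.891 for Tbx5, limma), nor did those of Slc8a1, Rbm20 and Rbpms (0.257 to 0.679).

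Of 21 cardiac transcription factors, 8 (38.1%) were near wide peaks, and 3 of these fell at E9.5, namely Nkx2-5, Srf and Tbx5, against 10.3% of all tested genes. Over the whole list 9 of 21 fell. Srf, which drives contractile genes, was at 41.9 to 57.0 RPKM in flox and 30.2 to 44.5 in null, which overlap, and fell by 0.43 (SE 0.12, adjusted p = 0.0265, limma). Its call was lost without flox 1, 3 or 5 or null 5 (adjusted p up to 0.0689). Tbx5, a T-box factor named after its values were seen, fell by 0.27 (adjusted p = 0.0498, limma) with overlapping groups, and leaving out any library but null 1 ended its call (adjusted p up to 0.104). Gata4, Gata5, Gata6, Mef2a and Mef2c had differences of -0.08, -0.31, -0.14, 0.01 and -0.15 and were not called. Gata5, which has a promoter rich in CpG, was at 36.2 to 53.4 RPKM in flox and 21.1 to 51.1 in null.

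All 3 calcium handling genes near wide peaks fell, and over the whole list 8 of 17 fell, against 10.3% of all tested genes. Jph2 fell by 0.37 (adjusted p = 0.00519, limma), from 77.8 to 91.3 RPKM in flox to 55.6 to 69.6 in null. Cacna1c, the L-type calcium channel, fell by 0.28 (0.0167), and Atp2a2, the calcium pump of the sarcoplasmic reticulum, by 0.24 (0.0313). The call of Atp2a2 was lost with median scaling (0.066) and without 8 of the 10 libraries in turn (adjusted p up to 0.0772). Smyd1, a muscle histone methyltransferase and 1 of 16 chamber and conduction genes near a wide peak, fell by 0.55 (SE 0.12, adjusted p = 0.00966, limma), from 175 to 234 RPKM in flox to 108 to 171 in null. Cpt1b, which brings fatty acids into mitochondria, and Esrra, a nuclear receptor of energy metabolism, fell by 0.68 and 0.66 (limma adjusted p = 0.000217 and 0.00258), and Ndufs1, the third of the 3 mitochondrial genes near wide peaks, had -0.10. Over the whole lists, 7 of 16 chamber and conduction genes and 10 of 18 mitochondrial genes fell at E9.5, and none rose. The falls of these lists were thus not limited to genes near wide peaks.

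Genes of general functions near wide peaks mostly did not pass the test. Of 15 NuRD genes, Chd4, Rbbp4 and Gatad2a were near wide peaks. Rbbp4, a histone-binding subunit whose promoter is shown above, was at 69.4 to 85.0 RPKM in flox and 68.1 to 81.8 in null, a difference of -0.04. Of the 4 other chromatin remodelling genes near wide peaks, of 20, Arid1a fell by 0.21 (adjusted p = 0.0165, limma). Of the cell cycle genes Ccnd2 and Aurkb, of 18, Ccnd2 fell by 0.31 (adjusted p = 0.0276, limma), a call lost without flox 1, 2 or 5 or null 5. Myl6, Cnn1 and Smtn, of 12 smooth muscle genes, were not called at E9.5, and Myl6 rose by 0.99 at E10.5 (adjusted p = 0.0453, limma). That call was lost by voom (0.0643) and without any of the 6 libraries (adjusted p up to 0.197), and its reads are uncertain because near-identical copies exist. None of the 7 ribosomal protein genes near wide peaks, of 22, was called by limma, by voom on the recovered reads or at an unadjusted p under 0.05, at either stage. No member of the Hox, epicardial, cushion mesenchyme, endothelial, foregut and liver or neuronal lists had a wide peak near its start.

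Among the genes with many wide peaks inside, Slc8a1 was at 105 to 122 RPKM in flox and 90.4 to 106 in null at E9.5, and fell by 0.22 (SE 0.06, adjusted p = 0.026, limma). The groups overlapped slightly, and the call was lost with median scaling (0.0626) and without any of 6 libraries (adjusted p up to 0.0663). Rbm20 fell by 0.43 (SE 0.08, adjusted p = 0.00399, limma) and Rbpms by 0.29 (adjusted p = 0.00911). Ttn and Qk, with differences of -0.24 and -0.16, were not called.

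Within the limits given for the falls, the largest rises near wide peaks at E9.5 were in Sapcd1, Mcam, Cox6b2, Hist1h2bc and Nfe2. Without these limits, 10 called genes near wide peaks rose at least 2-fold at E9.5. Cox6b2, the testis form of a cytochrome c oxidase subunit, was at 4.71, 6.94, 8.63, 7.79 and 5.88 RPKM in flox and 10.9, 20.9, 12.9, 23.6 and 13.9 in null. The groups did not overlap, and it rose by 1.18 (SE 0.22, adjusted p = 0.00473, limma). Its start lies in a wide peak of 1065 bp. Mcam, a cell adhesion molecule of vessel walls, was at 22.1, 50.9, 22.6, 37.9 and 39.4 RPKM in flox and 51.7, 83.1, 93.1, 85.2 and 81.7 in null. It rose by 1.23 (SE 0.24, adjusted p = 0.00633, limma), with the highest flox library just under the lowest null library. Sapcd1 rose by 1.26, Hist1h2bc by 1.18, Abhd11os by 1.06, Abcg4 by 1.006 and Cd248, a marker of perivascular cells, by 0.90. Hist1h2bc belongs to a family of near-identical genes and its reads are uncertain. Nfe2, an erythroid transcription factor and the only erythroid marker near a wide peak, was at 3.499 to 6.56 RPKM in flox and 7.09 to 17.1 in null and rose by 1.12 (SE 0.22, adjusted p = 0.00737, limma). It moved with the erythroid list, of which 11 of 13 rose at E9.5. The part of erythroid cells in these results was not tested, as the erythroid level nearly separates flox from null at E9.5. With that level as a covariate, Sapcd1 kept its call (limma adjusted p = 0.017), and the others named here did not (0.0542 to 0.796). Nfe2 is itself 1 of the 13 markers in that level, so the loss of its call is no test.

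**Figure D5:**
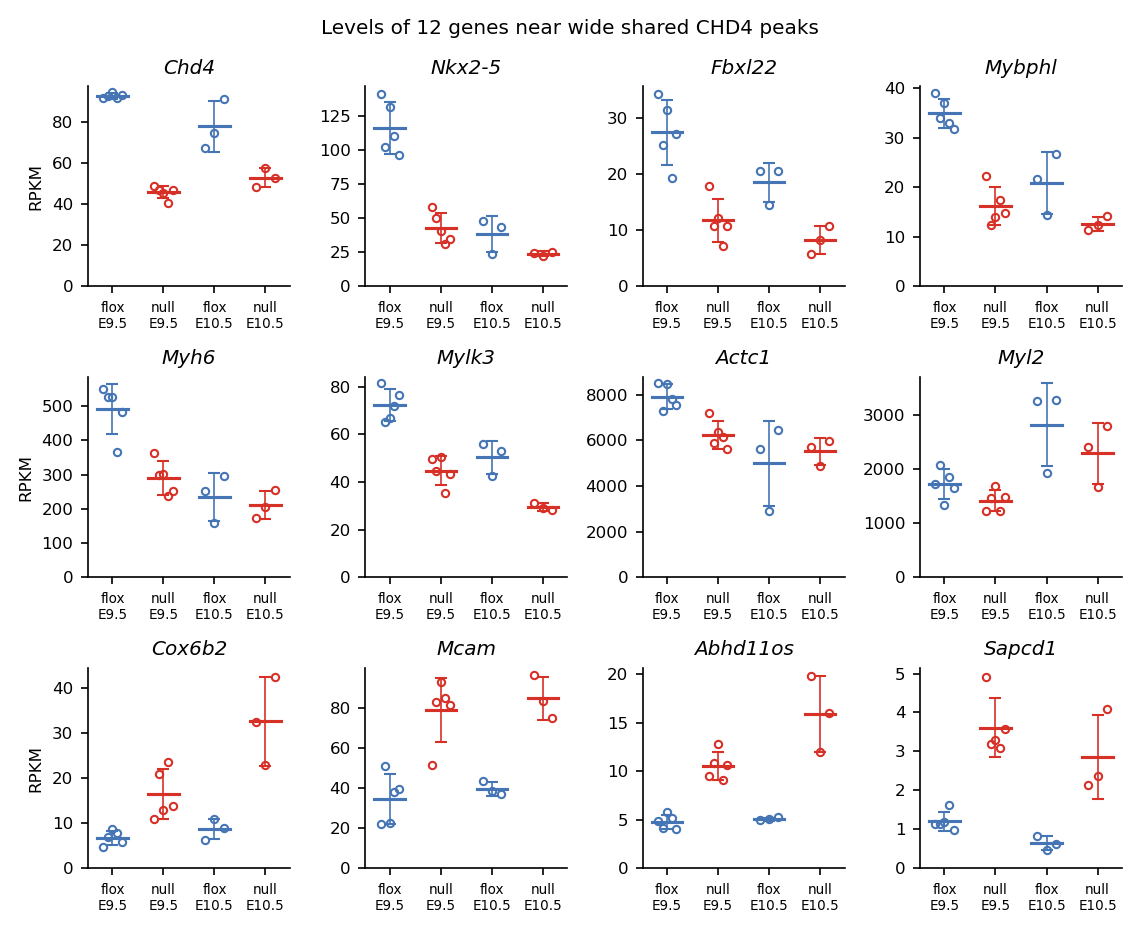
RPKM (y axes, linear, from 0) of 12 genes near wide shared peaks in each flox (blue) and null (red) library at E9.5 (5 and 5) and E10.5 (3 and 3); circles are libraries, lines are means and bars are SD. At E9.5 the flox and null circles do not overlap for Nkx2-5, Fbxl22 and Mybphl, which fell, nor for Cox6b2 and Mcam, which rose; Myl2 overlaps at both stages.

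At E10.5 few genes near wide peaks were called, and nearly all of these rose. Of 1774 tested genes near wide peaks, 27 rose (1.52%) and 3 fell (0.169%), against 1.77% and 0.305% of all 14100 tested genes. The share called was 1.69%, against 2.07% of all. Flox and null libraries did not overlap for 27.3%, against 31.3% of all tested genes. The median difference was 0.03, against -0.03 over all genes. The authors' deposited table lists 133 genes near wide peaks at E10.5, 105 higher and 28 lower in null, and 347 at E9.5, 114 higher and 233 lower. Over all genes the authors' deposited table lists 932 higher and 425 lower at E10.5, and 1625 higher and 1469 lower at E9.5. The count at E10.5 fell whichever library was left out. The count of 30 became 2 without flox 1, 4 without flox 2 or flox 3, 23 without null 1, 9 without null 2 and 15 without null 3. Over all tested genes the count of 292 became 63, 92 and 62 without flox 1, 2 or 3. It became 356, 139 and 199 without null 1, 2 or 3.

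At E10.5 the erythroid level was 24269 to 68089 RPKM in flox and 46535 to 142103 in null, and that of the 6 foregut and liver markers 2.81 to 177 in flox and 22.4 to 1368 in null, with up to 2 of the 6 at 0 in flox and none in null. With the erythroid level as a covariate 3 genes near wide peaks were called. With the epicardial level, none was called by limma. Of the 1774 tested, 95 were under an unadjusted p of 0.05, about the share that this threshold passes by chance. By voom without the covariate 23 were called. The part of these cells in the result was not tested further.

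Within the limits given for E9.5, Cox6b2 had the largest rise near a wide peak at E10.5. Cox6b2 went from 6.35, 10.97 and 8.84 RPKM in flox to 32.5, 22.8 and 42.5 in null. It rose by 1.83 (SE 0.26, adjusted p = 0.0159, limma), with no overlap, but the call was lost without flox 1 (0.0669) or flox 3 (0.0706). Sapcd1 and Abhd11os rose by 1.53 each, Rab3a, a regulator of vesicle release, by 1.44, Gdf15, a stress-induced factor, by 1.39, Ifi30 by 1.34, Izumo4 by 1.32 and Gstt2 by 1.26. Rab3a was at 4.88, 2.95 and 4.35 RPKM in flox and 16.1, 9.21 and 10.6 in null, while at E9.5 its difference was 0.11 and not called. Mcam rose by 1.08 (SE 0.15, adjusted p = 0.0144, limma), from 43.6, 38.5 and 36.9 RPKM in flox to 96.3, 83.6 and 74.9 in null. Tpm2, the beta-tropomyosin gene and the only one of 23 skeletal sarcomere genes near a wide peak, was at 18.8, 20.7 and 27.8 RPKM in flox and 48.9, 42.9 and 56.3 in null, and rose by 1.13 (SE 0.18, adjusted p = 0.0251, limma). Each of these 10 calls was lost without flox 1, and most also without another library, with adjusted p up to 0.158 for Gstt2 and 0.0552 for Abhd11os. Over the whole skeletal sarcomere list, 8 of 16 tested genes rose at E9.5 and 8 of 16 at E10.5, while 1 fell at E9.5 and 0 at E10.5. Of all tested genes, 6.87% and 1.77% rose. The rises of that list were thus not limited to genes near wide peaks.

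Skida1 fell by 1.12 at E10.5 (SE 0.21, adjusted p = 0.0393, limma), from 13.6, 10.9 and 12.7 RPKM in flox to 4.03, 7.18 and 5.48 in null, a call lost without flox 1, 2 or 3 or null 3 (adjusted p up to 0.183). The third fall was listed for a microRNA gene, Mir7017, which polyadenylated RNA libraries do not measure well. Mylk3 fell at both stages, and at E10.5 it was at 55.7, 42.6 and 52.9 RPKM in flox and 31.3, 29.0 and 28.3 in null, a fall by 0.75 (SE 0.15, adjusted p = 0.0457, limma) that was not called when any library was left out (adjusted p up to 0.231). None of the 8 cardiac sarcomere genes near wide peaks was called at E10.5, by limma, by voom or at an unadjusted p under 0.05, and their median difference was 0.01. Of the 1745 genes near wide peaks tested at both stages, 13 rose at both, 1 (Mylk3) fell at both and 1 (Mir6945, a microRNA gene) was called in opposite directions. The difference between the stages was not tested, and E10.5 has 3 libraries a group against 5 at E9.5.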

How the data were processed

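CHD4 peaks came from 3 immunoprecipitation libraries of E10.0 hearts and RNA levels from 16 libraries, grouped by the titles in the labels. The authors' peak lists hold positions in mm10 and a whole-number score per peak, on a scale not stated. The authors' tables give RPKM per gene and library. Their deposited tables of called genes hold log2 ratios, p-values and a mean normalized signal per gene, and were used for calls only. The submitters' processing notes name MACS2, DESeq2 1.6.3, HTSeq 0.6.2, Bowtie 1.2.0, bedtools 2.25.0 and SAMtools 1.6, with no role. Caller settings, multi-copy mapping and controls are not stated there.

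Peaks were joined to RefSeq genes (GRCm38.p6) within 5 kb of a listed start, or of either gene end where no strand was listed. A position was found for 99.6% of genes tested at E9.5 and a listed start for 76.8%. Each stage was fitted alone with limma 3.58.1 (R 4.3.3, trend) on log2(RPKM + 0.5), over genes with a mean RPKM of at least 0.5, two-sided. P-values were adjusted by Benjamini-Hochberg over all tested genes and called under 0.05, so fold changes of low genes are understated. Whole reads were recovered for 100% of values, and voom on them was an alternative chosen after seeing the data, as were listed starts only and peaks over no small RNA or histone gene. On simulated data at E9.5, 95.9% of genes changed by a log2 of 1 were recovered, and at E10.5 78.4%. The simulated counts had the same fixed dispersion for every gene and no difference in cell make-up between libraries. These shares are therefore not the power of the real data. Tables used Python 3.11.15, pandas 2.3.3 and numpy 2.4.6, and figures matplotlib 3.10.9.

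Members, gene lists and tests were chosen with earlier results of these data known. Named were the 8 widest regions, the 8 of highest score, and 3 on each side of the width limit. Named genes near wide peaks were Chd4, the 8 largest rises and falls per stage with groups that did not overlap, at least 1 RPKM in a group and no predicted symbol, the 10 of highest flox level, and up to 4 per list. Csrp3, Ldb3, Tbx5, Mef2a, Mef2c, Mir208a, the genes with most wide peaks inside, and Mir7017 and Mir6945 were named after values were seen.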

Additional observations from a re-analysis of the deposited data

Results flagged for a closer look

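In 8 cases a single E9.5 library of a group of 5 stood apart from the other 4 by Dixon's criterion, for named genes near wide peaks. Chance alone flags about 1 in 20 groups. The comparison of settings at E9.5 covered 96 named genes, each with a flox and a null group of 5. At that rate 8 flags are no more than chance alone would give, so none is read as a library effect. Null library 1 stood apart for Sapcd1 (4.92 RPKM), Mcam (51.7) and Ift122 (6.06). For Sapcd1 and Ift122 it was the highest null value, and for Mcam the lowest. Null library 4 stood apart for Chd2 (15.5 RPKM) and Per1 (5.93). Flox library 4 stood apart for Ift122 (8.32 RPKM), Rara (14.1) and Prickle1 (23.7).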

How the results depend on the processing

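With the replicate number as a replicate block, 519 genes near wide peaks and 3698 of all genes were called at E9.5, against 305 and 2342, and 20 and 269 at E10.5, against 30 and 292. The labels do not say that the numbers pair libraries. Correlations of same-numbered libraries were 0.45, 0.04, -0.14, 0.52 and 0.26 at E9.5 and 0.05, 0.11 and -0.03 at E10.5, so the block is no paired result. With the erythroid level as a covariate, 3 genes near wide peaks and 85 of all genes were called at E9.5, and 3 and 79 at E10.5. With the epicardial level the counts at E10.5 were 0 and 12. Without the filter on low values they were 7 and 162, and the authors' deposited table gave 133 and 1357. Leaving out 1 library gave 170 to 379 genes near wide peaks and 1537 to 2773 of all genes at E9.5, and 2 to 23 and 62 to 356 at E10.5.

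Other definitions moved the counts of called genes near wide peaks, and the numbers tested moved with them. The main setting called 305 of 1768 at E9.5 and 30 of 1774 at E10.5. Over all tested genes 17.2% and 2.07% were called. A window of 50 kb gave 755 of 4027 at E9.5 and 100 of 4065 at E10.5, and 1 kb gave 14 of 1478 at E10.5. Overlap of at least 50% of the peak in both other lists gave 197 of 977 and 19 of 980. A width of at least 1500 bp gave 82 of 486 and 6 of 484, and at least 2000 bp gave 29 and 1 of 177 each. At least 1000 bp in all 3 lists gave 40 and 4 of 211 each. The same 4 definitions gave 1335, 646, 241 and 324 peaks. Taking peaks from replicate 2 or 3 gave 820 or 509, and asking overlap with a single other list gave 2404 to 2423. The share of peaks near a start was 77.9% at 1500 bp, 78.4% at 2000 bp and 77.5% in all 3 lists. It was 73.2% without small RNA and histone genes, 72.7% from replicate 3, 64.0% at 1 kb, 94.6% at 50 kb and 59.4% with listed starts only. The median score was 317 at 2000 bp and 385 in all 3 lists. The cause of these shifts was not tested, apart from fewer peaks or libraries by construction. Depth limits low genes most.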
